A study of Mus musculus with 24 samples.

Results

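The comparison described here sets tumour regulatory T (Treg) cells taken after an antibody to JAML against those taken after an antibody to PD-1. It rests on 8 of the 24 bulk RNA libraries of the series, the 4 Treg libraries after anti-JAML and the 4 after anti-PD-1, chosen by their sample labels and compared across all genes. Mice carried B16F10-OVA tumours, a melanoma line with ovalbumin as a model antigen. They received 200 µg of anti-JAML, anti-PD-1 or isotype control antibody, and tumours were taken 1 day later. CD4+FOXP3+ cells were sorted as Treg cells, and each library was built by Smart-seq2, a whole-transcript amplification method for small samples, from a small number of cells. The 4 isotype Treg libraries entered the fit and are given as a baseline, and 8 CD8 T cell libraries after the same 2 antibodies are used once, for the same contrast in another population. Whether each library stands for another mouse is not stated in the labels, and p-values therefore measure only how libraries of a group vary, which may be technical.

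PD-1 restrains T cells once they are activated, and Treg cells carry it as well as CD8 cells. JAML belongs to the junctional adhesion molecules and acts as a costimulator in some T cells. Treg cells depend on the transcription factor Foxp3 and restrain other T cells through receptors such as CTLA-4 and through consumption of interleukin-2. When they are activated they grow, divide and load their endoplasmic reticulum with new protein, and when they are at rest they carry more of the growth-restraining transcripts.

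Total counts lay between 14859344 and 19299446 in the 4 anti-JAML libraries and between 11920543 and 16234577 in the 4 anti-PD-1 libraries (two-sided exact permutation p = 0.0571, where 0.0286 is the smallest possible with 4 against 4). Genes with at least 1 count numbered 14372 ± 719 after anti-JAML, 14720 ± 500 after anti-PD-1 and 13264 ± 763 after isotype (SD, n = 4 each). Mitochondrially encoded genes held 1.54 to 3.04% of counts after anti-JAML and 1.20 to 3.38% after anti-PD-1. Anti-JAML library 1 had the lowest share of its group, and anti-PD-1 library 1 had the highest of its own. Libraries differed in traces of other cells. Haemoglobin and other erythroid markers summed to 1417 CPM (counts divided by the scaled size of each library) in anti-JAML library 4 and to 716 CPM in anti-PD-1 library 1, and to at most 9.15 CPM in the other 6 libraries. The first principal component of the 8 libraries (26.1% of variance) set anti-JAML library 4 apart, at 166.6, from the other 7, which lay between -61.4 and 27.5. The fit was repeated without each library in turn. Some values below are given without library 1 of both antibodies, or without anti-PD-1 libraries 1 and 4. Without Treg anti-JAML library 4 only the call of Spp1 is given separately.

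The Treg label held in all 8 libraries. The summed level of 8 Treg markers (Foxp3, Il2ra, Ctla4, Ikzf2, Tnfrsf18, Tnfrsf4, Cd4 and Cd3e) was 5863 to 8118 CPM after anti-JAML, 5395 to 7154 CPM after anti-PD-1 and 6771 to 8801 CPM after isotype. These sums overlap, but the mean log2 CPM of the same 8 markers did not, at 9.18 to 9.31 after anti-JAML and 9.03 to 9.08 after anti-PD-1, with 8.97 to 9.39 after isotype. Foxp3 itself stood at 181, 118, 76.0 and 115 CPM in anti-JAML libraries 1 to 4, at 41.8, 114, 96.7 and 78.5 CPM in the anti-PD-1 libraries and at 62.2, 65.7, 59.0 and 106 CPM in the isotype libraries. The Foxp3 ranges overlap, and the log2 fold change of anti-JAML over anti-PD-1 was 0.56 ± 0.34 (SE; edgeR quasi-likelihood test, adjusted p = 1.00). Cd4 had 0.14 ± 0.29, and Il2ra, the high-affinity chain of the interleukin-2 receptor, had -0.36 ± 0.22, with overlapping groups. Ikzf2, which encodes the Treg factor Helios, was measured at 1204, 1281, 1716 and 1548 CPM after anti-JAML and at 910.2, 758, 665 and 1087 CPM after anti-PD-1. All 4 anti-JAML libraries lay above all 4 anti-PD-1 libraries for Ikzf2 (0.75 ± 0.19, adjusted p = 0.583), while isotype libraries held 985, 1327, 1551 and 1219.7 CPM. Of the 2 CD8 markers, Cd8a was at 0 in the anti-JAML libraries and at most 0.0785 CPM in the anti-PD-1 libraries, but Cd8b1 was read in every library, at 25.5, 26.2, 40.8 and 27.8 CPM after anti-JAML and at 38.6, 15.8, 12.9 and 29.8 CPM after anti-PD-1.

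Of the antibody targets, Jaml (ENSMUSG00000048534.7, mm10 chromosome 9, 45079183 to 45108534, plus strand) was near the limit of reading in Treg cells. It was at 0, 0, 0.212 and 0 CPM after anti-JAML, at 1.65, 3.89, 2.35 and 3.36 CPM after anti-PD-1 and at 0, 0, 0 and 0.825 CPM after isotype. In counts this was 4 over the anti-JAML group and 162 over the anti-PD-1 group. All 4 anti-PD-1 libraries had reads and only 1 anti-JAML library did, and the groups did not overlap, with a log2 fold change of -5.51 ± 2.23 that did not pass over all genes (edgeR adjusted p = 0.791). Pdcd1, the gene of PD-1 on chromosome 1, was abundant after both antibodies. It stood at 866, 971, 396 and 575 CPM after anti-JAML and at 640.4, 898, 1106 and 754 CPM after anti-PD-1, with overlapping groups (-0.28 ± 0.30, adjusted p = 1.00). Antibody bound to protein is not seen in these values, which measure RNA.

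Across 12981 genes, edgeR called 0 genes (0%) at an adjusted p below 0.05, with a smallest adjusted p of 0.122. At an unadjusted p below 0.05 there were 742 genes, against 649 that chance alone gives at that threshold, 378 higher after anti-JAML (2.91%) and 364 lower (2.8%). The 4 libraries of each antibody did not overlap for 308 genes higher after anti-JAML (2.37%) and 286 lower (2.2%). DESeq2 called 70 genes among the 3921 to which it gave an adjusted p, 37 higher (0.944%) and 33 lower (0.842%), and limma-voom called 0, with a smallest adjusted p of 0.0889. Of the comparisons with isotype, which share libraries with this one and are used only to place levels, edgeR called 0 genes (0%) for anti-JAML and 3 genes (0.0231%) for anti-PD-1. The corresponding numbers at an unadjusted p below 0.05 were 699 and 1835. None of the genes named below passed edgeR in the direct comparison, so they are described by their levels and by whether the groups overlap. The median log2 fold change of all genes was -0.03.

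**Figure D1:**
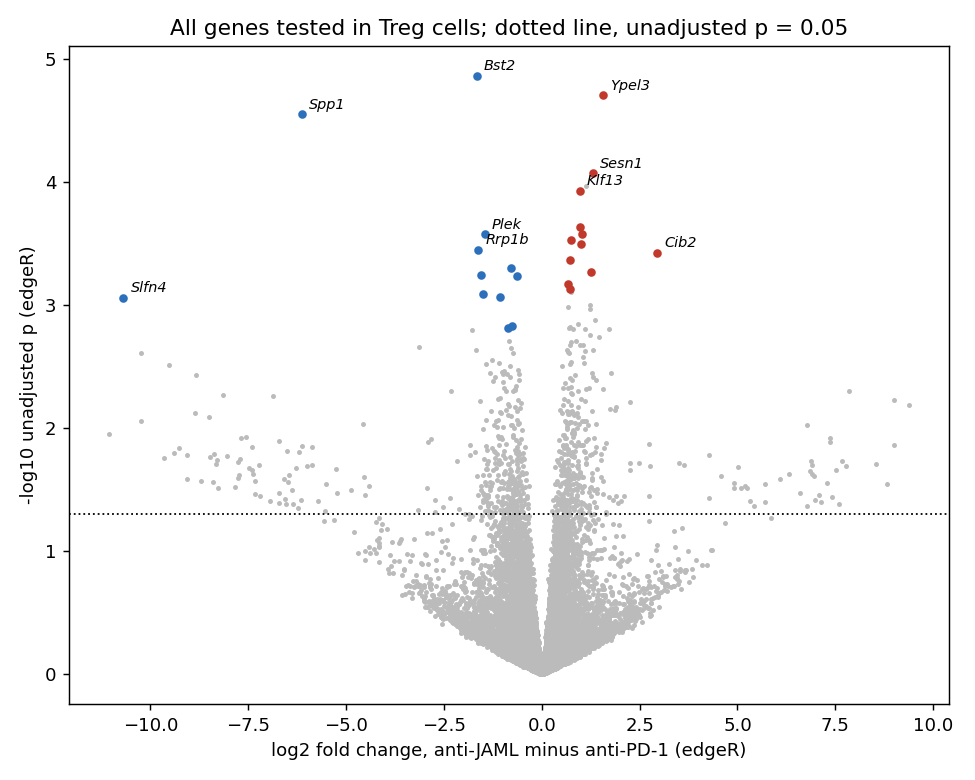
Each point is 1 of 12981 genes, placed by its log2 fold change of anti-JAML over anti-PD-1 in Treg cells (horizontal axis) and by minus log10 of its unadjusted p from edgeR (vertical axis). The 24 leading genes, 12 in each direction, are coloured, and Bst2, Ypel3 and Spp1 stand highest with adjusted p = 0.122.

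Ypel3, Sesn1 and Klf13 had the smallest p among named genes higher after anti-JAML, and Bst2, Spp1 and Plek among those lower after it. Promoters of 3 leading genes are shown because each carries a short motif of a well-known regulator, printed in capitals. All run 5′ to 3′ on the strand of the gene, from 250 bases before to 50 bases after the annotated start, from RefSeq on GRCm38.p6, and 23 of the 24 leading genes had an entry. Bst2, at chr8:71537423-71537722 on the minus strand, has 2 overlapping matches to GAAANNGAA, the core of interferon response elements. Ypel3, at chr7:126776713-126777012 on the plus strand, has 1 match to TGTTTAC (here as its reverse complement), a core bound by forkhead factors. Ciart, at chr3:95882179-95882478 on the minus strand, has 3 matches to the E-box CACGTG.
Bst2: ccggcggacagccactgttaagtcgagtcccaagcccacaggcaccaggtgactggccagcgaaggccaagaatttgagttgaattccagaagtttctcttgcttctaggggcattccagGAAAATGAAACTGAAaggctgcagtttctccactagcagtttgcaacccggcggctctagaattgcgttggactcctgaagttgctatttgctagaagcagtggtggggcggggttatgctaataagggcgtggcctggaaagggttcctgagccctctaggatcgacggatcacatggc
Ypel3: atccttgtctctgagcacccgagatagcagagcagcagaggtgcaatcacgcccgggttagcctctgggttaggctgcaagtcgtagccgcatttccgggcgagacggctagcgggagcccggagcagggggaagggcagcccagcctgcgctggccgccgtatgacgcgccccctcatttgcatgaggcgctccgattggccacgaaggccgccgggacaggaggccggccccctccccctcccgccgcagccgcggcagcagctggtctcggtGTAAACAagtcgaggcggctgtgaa
Ciart: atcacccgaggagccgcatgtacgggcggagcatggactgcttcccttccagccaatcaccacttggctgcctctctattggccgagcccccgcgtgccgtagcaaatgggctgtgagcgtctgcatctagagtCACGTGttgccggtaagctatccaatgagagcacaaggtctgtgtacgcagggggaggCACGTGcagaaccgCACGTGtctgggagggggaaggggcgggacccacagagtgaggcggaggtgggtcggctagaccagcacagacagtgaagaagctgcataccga
Searched on both strands, GAAANNGAA occurred in 8.56%, CACGTG in 7.15% and TGTTTAC in 3.65% of 32851 promoters of this length. Among the leading genes GAAANNGAA was found for Bst2 and Spp1, CACGTG for Ciart, Hspd1 and Wdr43, and TGTTTAC for Ypel3, Sesn1, Ltb and Rrp1b. A match describes the letters in the window and is not a measured binding site.

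Ypel3, a small zinc-binding protein that slows cell growth, had the smallest p on the side higher after anti-JAML. It was measured at 298, 425, 368 and 538 CPM after anti-JAML, at 123, 112, 115 and 198 CPM after anti-PD-1 and at 536, 719.7, 585 and 456 CPM after isotype. The lowest anti-JAML library lay above the highest anti-PD-1 library, for a log2 fold change of 1.57 ± 0.24 (adjusted p = 0.122 in edgeR, 4.32e-07 in DESeq2). Ypel3 was one of the 3 genes that edgeR called for anti-PD-1 against isotype, where its log2 fold change was -2.07 (adjusted p = 0.0151).

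Sesn1, a sestrin that holds back the growth kinase complex mTORC1, showed the same arrangement. Its levels were 93.0, 144, 112 and 74.9 CPM after anti-JAML, 39.8, 33.9, 41.0 and 56.3 CPM after anti-PD-1 and 102, 115, 117 and 102 CPM after isotype, and the antibody groups did not overlap (1.31 ± 0.23, adjusted p = 0.255 in edgeR, 0.000153 in DESeq2). Klf13, a Krüppel-like transcription factor, stood at 343, 259.8, 258 and 336 CPM after anti-JAML and at 197, 158, 119 and 135 CPM after anti-PD-1 (0.97 ± 0.18, adjusted p = 0.255). Pdcd4, an inhibitor of translation initiation, stood at 186, 211, 159 and 238 CPM after anti-JAML and at 113, 89.3, 74.0 and 121 CPM after anti-PD-1 (1.00 ± 0.21, adjusted p = 0.375). In both genes every anti-JAML library exceeded every anti-PD-1 library.

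Receptors and ligands were found among the same 12 genes. Ltb, which encodes the membrane ligand lymphotoxin beta, stood at 966, 1450.3, 1229.5 and 1744 CPM after anti-JAML and at 885, 553, 618 and 565 CPM after anti-PD-1 (1.04 ± 0.21, adjusted p = 0.375). Its groups did not overlap, although anti-PD-1 library 1 came close to the lowest anti-JAML library. Cxcr3, the receptor for interferon-induced chemokines, stood at 619, 717, 664 and 675 CPM after anti-JAML and at 443, 417, 358 and 402 CPM after anti-PD-1 (0.72 ± 0.16, adjusted p = 0.402). The lysophosphatidylserine receptor gene Gpr174 averaged 125 ± 6.59 CPM after anti-JAML and 75.4 ± 7.45 CPM after anti-PD-1 (SD, n = 4 each). The others were Clk1, a kinase of splicing factors (0.98 ± 0.19), Ogt, the enzyme that attaches O-linked N-acetylglucosamine (0.76 ± 0.16), Cib2 (2.95 ± 0.62, from 1.66 ± 0.476 CPM after anti-PD-1), Tcp11l2 (1.25 ± 0.27) and Otulinl (0.67 ± 0.15). All 12 genes were higher in 4 of 4 anti-JAML libraries than in any anti-PD-1 library. Leading genes of either direction were chosen by small p in these same libraries, so such separation is largely built in. Over all genes it was seen for 2.37% higher after anti-JAML and 2.2% lower.

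On the side that was lower after anti-JAML, Bst2 had the smallest p of all genes. Bst2 encodes tetherin, an interferon-induced membrane protein that holds budding virus particles at the cell surface. It was measured at 72.6, 40.2, 57.5 and 58.7 CPM after anti-JAML, at 124, 257, 159 and 183 CPM after anti-PD-1 and at 65.7, 70.9, 71.8 and 76.6 CPM after isotype. The anti-PD-1 libraries stood above both other groups without overlap, and the log2 fold change of anti-JAML over anti-PD-1 was -1.66 ± 0.24 (adjusted p = 0.122 in edgeR, 4.32e-07 in DESeq2).

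Spp1, which encodes the secreted phosphoprotein osteopontin, had the third smallest p. It stood at 7.71, 2.76, 6.30 and 0 CPM after anti-JAML, at 502, 77.0, 371 and 227 CPM after anti-PD-1 and at 53.8, 65.3, 38.5 and 102 CPM after isotype. All 4 anti-JAML libraries lay below every library of the other 2 groups, with a log2 fold change of -6.13 ± 0.97 against anti-PD-1 (adjusted p = 0.122). When anti-JAML library 4 was left out Spp1 was the 1 gene that edgeR called (-5.71, adjusted p = 0.0459).

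Slfn4, a Schlafen family gene that is interferon-inducible in myeloid cells, had 0 counts in all anti-JAML and all isotype libraries and 6.36, 25.0, 2.15 and 17.0 CPM after anti-PD-1. Against a floor of 3 counts over the anti-JAML group it was at least 280.5-fold lower (adjusted p = 0.472). Plek, which encodes the cytoskeletal protein kinase C substrate pleckstrin, stood at 136, 62.6, 105 and 62.6 CPM after anti-JAML and at 210.5, 302, 327 and 169 CPM after anti-PD-1 (-1.46 ± 0.29, adjusted p = 0.375). Both Slfn4 and Plek are also transcripts of myeloid cells.

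Macrophage transcripts were higher in some anti-PD-1 libraries. Of 14 macrophage and monocyte markers, 11 were tested, and all 11 had negative log2 fold changes, with a median of -1.96. Their summed level, carried mostly by the protease gene Ctsb, which T cells also express, was 1080 to 1403 CPM after anti-JAML, 1423 to 2640 CPM after anti-PD-1 and 1368 to 1458 CPM after isotype. Lyz2, chosen after its values were seen, stood at 2.78, 13.2, 41.7 and 13.9 CPM after anti-JAML and at 678, 118, 2.09 and 893 CPM after anti-PD-1, highest in anti-PD-1 libraries 1 and 4 and lowest in library 3. The defining marker Adgre1 was at 0 in all 4 anti-JAML libraries. Anti-PD-1 library 3 had 0 CPM of Csf1r and Adgre1, but its summed marker level was 1625 CPM, above that of library 2 (1423 CPM). In library 3 Spp1 was at 371 CPM, Bst2 at 159 CPM and Plek at 327 CPM. Without anti-PD-1 libraries 1 and 4 the median of the macrophage markers was -0.20, with 6 of 11 negative. In that fit, which kept anti-PD-1 libraries 2 and 3, the log2 fold changes of Spp1, Bst2 and Plek were -5.74, -1.87 and -1.78. The part of macrophage RNA in these genes was not tested. In bulk libraries, fewer cells of a type and less RNA per cell cannot be told apart.

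Cct7, a subunit of the cytosolic chaperonin, stood at 384, 400.1, 411 and 339.9 CPM after anti-JAML and at 622, 603, 608 and 564 CPM after anti-PD-1, 2 tight groups that did not overlap (-0.64 ± 0.14, adjusted p = 0.414 in edgeR, 0.000265 in DESeq2). Hspd1, the mitochondrial chaperonin HSP60, averaged 174 ± 19.0 CPM after anti-JAML and 295 ± 11.1 CPM after anti-PD-1 (-0.76 ± 0.19, adjusted p = 0.555). Kpna2, an importin that carries cargo into the nucleus, averaged 292 ± 32.0 CPM after anti-JAML and 503 ± 77.5 CPM after anti-PD-1 (SD, n = 4 each; -0.78 ± 0.17).

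Nup107, a scaffold protein of the nuclear pore, stood at 60.0, 45.9, 37.1 and 52.4 CPM after anti-JAML, at 70.4, 118, 124 and 94.0 CPM after anti-PD-1 and at 23.3, 31.3, 24.1 and 22.2 CPM after isotype (-1.06 ± 0.25 for anti-JAML over anti-PD-1, adjusted p = 0.472). It was another of the 3 genes called for anti-PD-1 against isotype (2.01, adjusted p = 0.0151). Anti-JAML libraries lay between the other 2 groups here, without overlap with either. Rrp1b (-1.62 ± 0.34) and Wdr43 (-0.85 ± 0.21), both nucleolar proteins of ribosome assembly, and Mlec (-1.55 ± 0.34), a lectin of the endoplasmic reticulum, were lower in 4 of 4 anti-JAML libraries. For Mlec the groups nearly met, at 68.2 CPM in anti-JAML library 3 and 69.5 CPM in anti-PD-1 library 1. Ciart, a repressor in the circadian clock, stood at 16.2, 9.73, 7.94 and 7.13 CPM after anti-JAML, at 30.8, 24.1, 38.2 and 23.5 CPM after anti-PD-1 and at 33.8, 29.9, 30.5 and 30.3 CPM after isotype (-1.51 ± 0.35, adjusted p = 0.472). For Ciart it was the anti-JAML group that lay apart from the other 2.

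**Figure D2:**
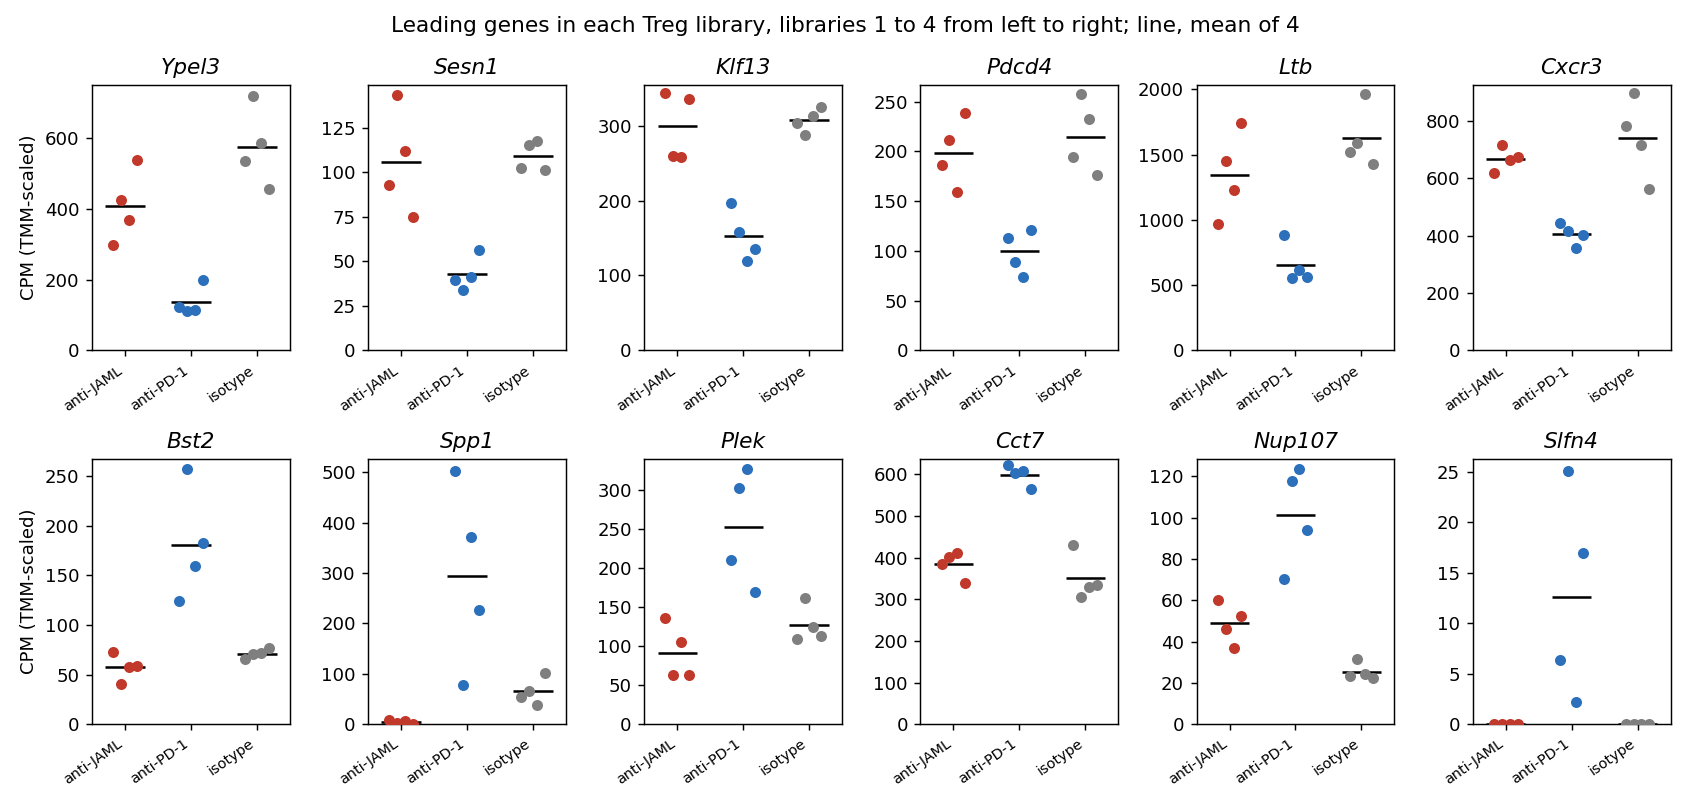
Points are CPM in single Treg libraries for 12 leading genes, with anti-JAML, anti-PD-1 and isotype from left to right and a line at the mean of 4. In the upper row the anti-PD-1 points lie below the anti-JAML points, in the lower row above them, and Slfn4 is at 0 in all anti-JAML and isotype libraries.

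The same contrast was read in CD8 libraries for the 24 leading genes chosen in Treg cells. Of the 24, 23 had the same sign in CD8 cells, 12 of 12 higher and 11 of 12 lower. Among all genes with an unadjusted p below 0.05 in Treg cells, 581 of 735 (79.0%) had the same sign, and among all 12880 genes with a value in both populations 59.3% did. The exception was Slfn4, which had next to no reads in CD8 cells. The count of 23 was the same in all 14 alternatives tried.

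Whether single genes passed in CD8 cells depended on the libraries in the fit. With the 12 CD8 libraries alone 0 of the 24 passed in edgeR, where 1 of 12648 genes did, and 16 of the 24 had the same sign with an unadjusted p below 0.05, as 1261 of all genes did in either direction; the smallest adjusted p of the 24 was 0.0505. In the fit of all 24 libraries, whose estimate of spread also draws on the Treg libraries in which the genes were chosen, 8 of the 24 passed and 58 of 14591 genes did (0.398%). These 8 were Ypel3 (1.74 ± 0.28), Clk1 (1.13 ± 0.19), Pdcd4 (1.77 ± 0.33), Cxcr3 (1.23 ± 0.23), Ogt (0.89 ± 0.18), Ltb (1.24 ± 0.27), Klf13 (1.69 ± 0.38) and Bst2 (-1.07 ± 0.24). In that fit they were 0 without CD8 anti-PD-1 library 1, where 3 genes passed in all, and 0 without CD8 anti-JAML libraries 2 and 4, where 0 genes passed. They were 2 without CD8 anti-PD-1 library 2 (9 genes in all) or library 4 (6 genes), 3 without CD8 anti-JAML library 4 (14 genes) and 5 without CD8 anti-JAML library 2 (21 genes). CD8 anti-JAML library 2 had 412 CPM of Lyz2, and CD8 anti-JAML library 4 had 6.89% mitochondrial counts. Klf13 stood at 262, 146, 181 and 828 CPM in CD8 anti-JAML libraries and at 94.3, 59.7, 149 and 134 CPM in CD8 anti-PD-1 libraries. Its CD8 groups overlapped, and its highest value was that of CD8 anti-JAML library 4.

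Ypel3 stood at 207, 212, 179.6 and 234 CPM in CD8 libraries after anti-JAML and at 44.0, 42.0, 109 and 54.7 CPM after anti-PD-1. Bst2 stood at 34.6, 52.5, 40.0 and 26.3 CPM after anti-JAML and at 86.8, 96.1, 61.9 and 78.4 CPM after anti-PD-1. The groups did not overlap for either gene. The labels do not say whether CD8 and Treg libraries came from the same mice. The difference of the contrast between the populations, tested directly in 14591 genes, gave 0 calls in edgeR (0%; smallest adjusted p 0.835, 821 genes at an unadjusted p below 0.05) and 138 in DESeq2. Spp1 was among the 6 genes with the smallest p of that difference, with -6.13 ± 0.97 in Treg cells and -1.86 ± 0.75 in CD8 cells.

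**Figure D3:**
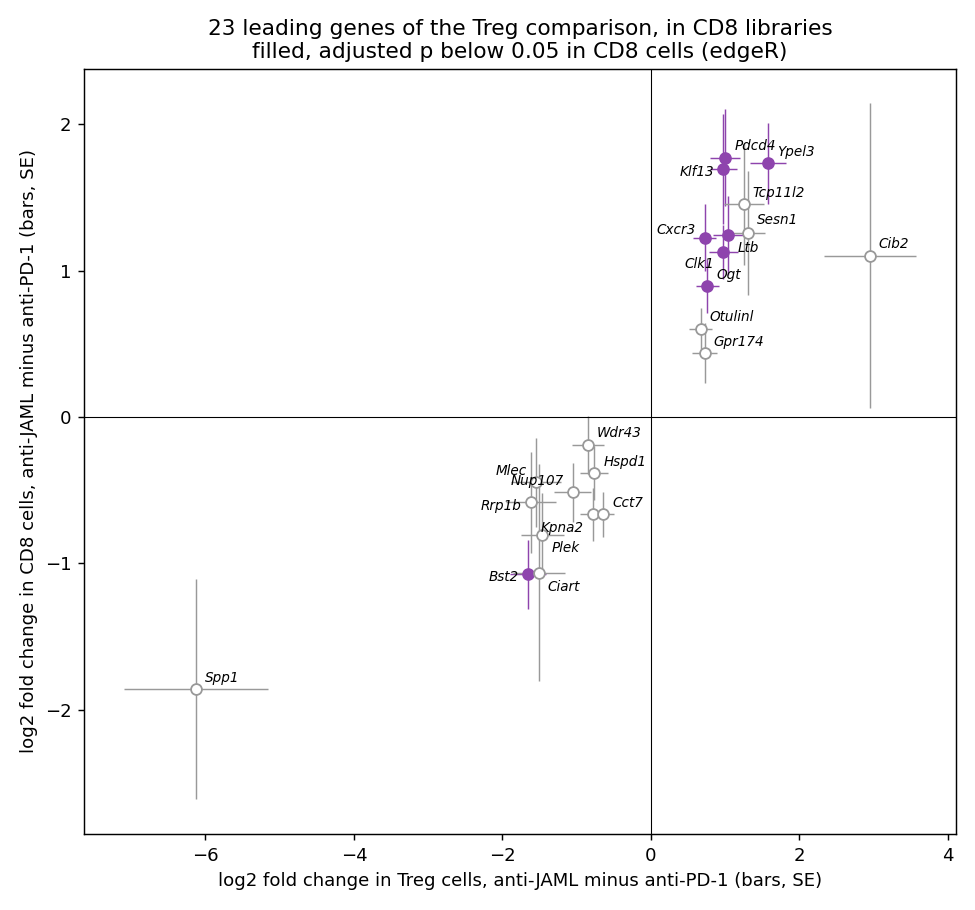
Log2 fold changes of anti-JAML over anti-PD-1 in Treg cells (horizontal axis) and in CD8 cells (vertical axis) for 23 of the 24 leading genes, with bars for the SE; Slfn4 is left out because a whole group is at 0. All 23 lie in the quadrants of equal sign, and the 8 filled points passed in CD8 cells in the fit of all 24 libraries, whereas 0 passed with the 12 CD8 libraries alone.

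Gene lists were then read by counts and medians beside the values of all genes. Genes of cell division leaned lower after anti-JAML. Of 34 tested genes of mitosis and the spindle, 33 had negative log2 fold changes, with a median of -0.54 against -0.03 for all genes. An unadjusted p below 0.05 was reached by 9 of them, all lower, against 2.8% of all genes, and 7 did not overlap between the antibodies, all lower, against 2.2%. Prc1, which bundles the microtubules of the dividing spindle, stood at 43.4, 51.9, 69.5 and 42.5 CPM after anti-JAML and at 90.7, 88.8, 114 and 99.2 CPM after anti-PD-1 (-0.92 ± 0.32, adjusted p = 0.765). Top2a, the topoisomerase of dividing cells, stood at 239, 124, 164 and 110.2 CPM after anti-JAML and at 200.1, 350.5, 396 and 312 CPM after anti-PD-1 (-0.98 ± 0.28, adjusted p = 0.631), and its groups overlap through library 1 of each. Ccnb1, which encodes the mitotic cyclin B1, had -0.70 ± 0.23, also with overlap through anti-JAML library 1. The median of the same list was 0.33 for anti-JAML over isotype and 0.92 for anti-PD-1 over isotype.

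DNA replication followed the same arrangement, with 42 of 45 tested genes negative and a median of -0.48. An unadjusted p below 0.05 was reached by 5 of them, against 2.8% of all genes, and 3 did not overlap, against 2.2%, all lower. Lig1, the DNA ligase of replication, averaged 84.5 ± 14.3 CPM after anti-JAML and 168 ± 57.4 CPM after anti-PD-1 (-0.99 ± 0.36). Rpa2, a subunit of the protein that coats single-stranded DNA, had -0.74 ± 0.25, and Pold1, the catalytic subunit of a replicative polymerase, had -1.72 ± 0.62 (adjusted p = 0.765 for all 3 genes).

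Of 28 tested genes of the unfolded protein response, which folds new protein in the endoplasmic reticulum, 21 were negative, with a median of -0.52. Among them 10 reached an unadjusted p below 0.05, against 2.8% of all genes, and 7 did not overlap, against 2.2%, all lower. Hspa5, the chaperone BiP, stood at 607, 633, 474 and 309.6 CPM after anti-JAML and at 702, 1005, 1162 and 956 CPM after anti-PD-1 (-0.92 ± 0.27, adjusted p = 0.641). The disulphide isomerase gene Pdia6 stood at 229, 189, 250.2 and 227 CPM after anti-JAML and at 419, 340.1, 278 and 315 CPM after anti-PD-1 (-0.59 ± 0.18, adjusted p = 0.688). Neither gene overlapped between the antibodies. Dnajb11, a partner of BiP, had -0.81 ± 0.22 with overlap through library 1 of each group. The list median was 0.26 for anti-JAML over isotype and 0.73 for anti-PD-1 over isotype.

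The next lists had medians closer to that of all genes. Of 19 tested genes of heat shock and handling stress, 13 were negative (median -0.38). An unadjusted p below 0.05 was reached by 5, all lower, against 2.8% of all genes, but without anti-PD-1 libraries 1 and 4 the median was -0.08. The co-chaperone gene Stip1 had -0.73 ± 0.22 and did not overlap. Of 19 tested genes of Myc and amino acid transport, 12 were negative (median -0.28), and 4 did not overlap, all lower, against 2.2% of all genes. Ncl, the nucleolar protein nucleolin, stood at 362, 309.9, 431 and 234 CPM after anti-JAML and at 482, 701, 549 and 563 CPM after anti-PD-1 (-0.78 ± 0.20, adjusted p = 0.583). Psat1, an enzyme of serine synthesis, had -0.74 ± 0.20 and did not overlap either. Of 28 tested glycolysis and hypoxia genes, 19 were negative (median -0.22). An unadjusted p below 0.05 was reached by 6, all lower, against 2.8% of all genes. The glycolytic enzyme gene Eno1 stood at 2271, 2676, 2084 and 2156 CPM after anti-JAML and at 3067, 3048, 4245 and 3429 CPM after anti-PD-1, without overlap (-0.59 ± 0.17, adjusted p = 0.631). Nuclear genes of the respiratory chain were divided, with 32 of 73 positive and 41 negative, 0 at an unadjusted p below 0.05 and a median of -0.02, which was 0.35 without library 1 of each group.

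Interferon-response genes, Bst2 among them, leaned lower after anti-JAML. Of 37 tested genes of the type I interferon response, Bst2 included, 33 were negative, with a median of -0.36. An unadjusted p below 0.05 was reached by 5 and 3 did not overlap, all lower, against 2.8% and 2.2% of all genes. The most abundant member, Ifi27l2a, was positive (0.17 ± 0.27) with overlapping groups. Oas1a, an antiviral nucleotide synthetase, stood at 53.5, 55.6, 73.5 and 75.6 CPM after anti-JAML and at 129, 118, 67.1 and 155 CPM after anti-PD-1 (-0.86 ± 0.27, adjusted p = 0.698). For this gene library 3 of the anti-PD-1 group lay within the anti-JAML range. Irf7, a transcription factor of the response, had -0.65 ± 0.24. Of 20 tested genes of the interferon gamma response, 18 were negative (median -0.30). An unadjusted p below 0.05 was reached by 5, all lower, against 2.8% of all genes, and 0 were free of overlap. Gbp4, a guanylate-binding protein, had -0.57 ± 0.21. Of 22 tested genes of MHC class I presentation, 18 were negative (median -0.21). An unadjusted p below 0.05 was reached by 3 and 2 did not overlap, all lower, against 2.8% and 2.2% of all genes. Tap1, a chain of the peptide transporter, averaged 361 ± 122 CPM after anti-JAML and 669 ± 270.5 CPM after anti-PD-1 (-0.89 ± 0.40, adjusted p = 0.836). The most abundant member, B2m, was positive (0.24 ± 0.23), and the antibody groups overlapped for both Tap1 and B2m.

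Effector genes had a median of -0.68, with 15 of 19 tested genes negative. An unadjusted p below 0.05 was reached by 5 and 3 were free of overlap, all lower, against 2.8% and 2.2% of all genes. Ccl4, a chemokine that draws T cells and myeloid cells, stood at 297, 85.8, 296 and 479.8 CPM after anti-JAML, at 1642, 585, 822 and 905 CPM after anti-PD-1 and at 663, 855, 547 and 439.6 CPM after isotype (-1.77 ± 0.44, adjusted p = 0.555 in edgeR, 0.00247 in DESeq2). Ccl3, its neighbour in the same chemokine family, had -1.67 ± 0.44, and neither chemokine overlapped between the antibodies. Gzmb, the protease granzyme B, which Treg cells can use to kill other cells, stood at 623, 744, 449 and 644 CPM after anti-JAML and at 844, 806, 1068 and 1216 CPM after anti-PD-1, without overlap (-0.68 ± 0.20, adjusted p = 0.641). Without anti-PD-1 libraries 1 and 4 the median of the effector list was -0.29, and without library 1 of each group it was -0.22. With the macrophage score as a covariate the median was also -0.29. Macrophage markers were high in anti-PD-1 libraries 1 and 4, and the cause was not tested.

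Genes of Treg suppression were divided. Of 17 tested mediators, 12 were negative (median -0.28). An unadjusted p below 0.05 was reached by 4 as lower and 1 as higher, against 2.8% and 2.91% of all genes. Lag3, an inhibitory receptor, stood at 234, 146, 77.0 and 108 CPM after anti-JAML and at 156, 517, 746 and 256 CPM after anti-PD-1 (-1.57 ± 0.48, adjusted p = 0.688 in edgeR, 0.0332 in DESeq2), with overlap through anti-PD-1 library 1. Entpd1, the ectoenzyme CD39 that breaks down extracellular ATP, had -0.50 ± 0.19. Tigit, another inhibitory receptor, stood at 1467, 1612, 1471 and 1923 CPM after anti-JAML and at 1398, 1367, 1396 and 1158 CPM after anti-PD-1, without overlap (0.28 ± 0.15, adjusted p = 0.975). Treg identity genes as a list gave 15 positive and 9 negative of 24, with a median of 0.14. The costimulatory receptor genes Cd27 (0.55 ± 0.16) and Icos (0.66 ± 0.22) were higher in all 4 anti-JAML libraries than in any anti-PD-1 library, in a list with 12 of 19 positive and a median of 0.17. That list was 9 of 19 positive in limma-voom, and its median was 0.02 with the replicate block and 0.00 without library 1 of each group.

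**Figure D4:**
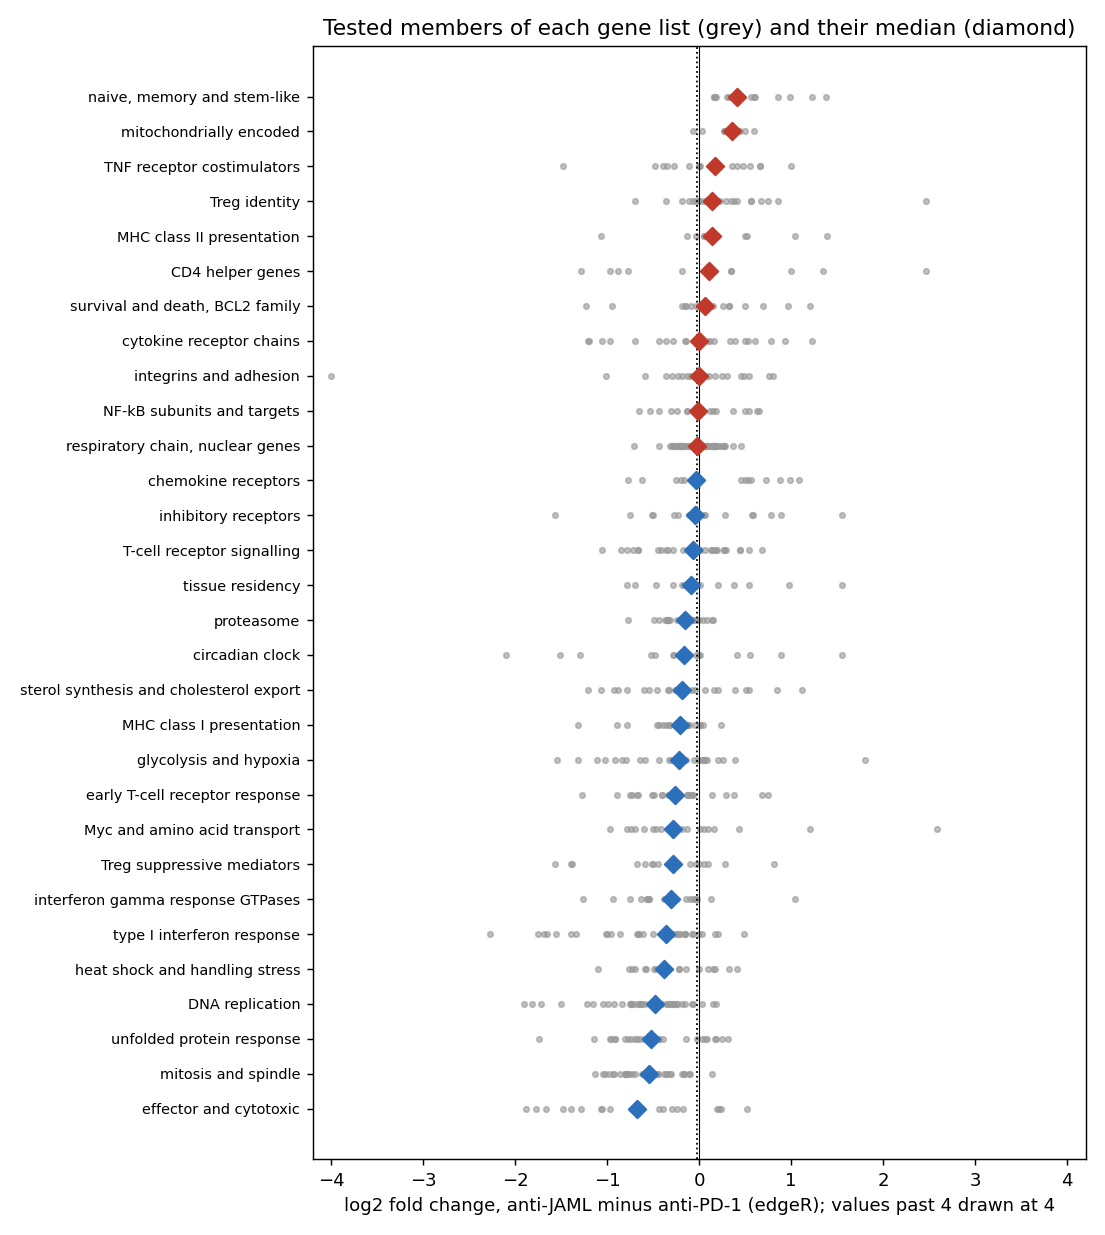
Grey points are the log2 fold changes of the tested members of 30 gene lists (anti-JAML over anti-PD-1 in Treg cells) and diamonds their medians (red above and blue below the median of all genes), with a dotted line at the median of all genes, -0.03. The naive, memory and stem-like list lies at the top with a median of 0.41 and the effector list at the bottom with -0.68 in this fit; Jaml is drawn at -4.

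All 15 tested genes of naive and memory T cells had positive log2 fold changes, with a median of 0.41. An unadjusted p below 0.05 was reached by 2 of them and 2 did not overlap, all higher, against 2.91% and 2.37% of all genes. The median was 0.62 without anti-PD-1 libraries 1 and 4 and 0.26 without library 1 of each group. Il7r, the receptor chain for the survival cytokine interleukin-7, stood at 163, 242, 139 and 126 CPM after anti-JAML, at 82.6, 45.3, 81.2 and 77.9 CPM after anti-PD-1 and at 144, 265, 141 and 143 CPM after isotype (1.22 ± 0.29, adjusted p = 0.513 in edgeR, 0.00956 in DESeq2). Its antibody groups did not overlap. S1pr1, the receptor that lets T cells leave tissue, stood at 266, 226, 100 and 90.2 CPM after anti-JAML and at 72.4, 84.3, 91.7 and 96.3 CPM after anti-PD-1, high in anti-JAML libraries 1 and 2 only (0.98 ± 0.34). The median of the naive and memory list was -0.17 for anti-JAML over isotype and -0.73 for anti-PD-1 over isotype, and 1.97 for anti-JAML over anti-PD-1 in CD8 cells.

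The lists did not part the libraries equally. The mean log2 CPM of the mitosis list was 6.57, 6.15, 6.33 and 6.02 in anti-JAML libraries 1 to 4 and 6.75, 6.84, 6.97 and 6.85 in the anti-PD-1 libraries, without overlap. The mean of the unfolded protein response list was 6.22, 6.02, 5.67 and 5.62 after anti-JAML and 6.18, 6.55, 6.64 and 6.48 after anti-PD-1, where anti-JAML library 1 lay above anti-PD-1 library 1. Their mitochondrial shares also stood apart from their groups, at 1.54% in anti-JAML library 1 against 2.68 to 3.04% in the other 3, and at 3.38% in anti-PD-1 library 1 against 1.20 to 1.505% in the other 3. With the mitochondrial share as a covariate the medians of the mitosis and unfolded protein response lists were -0.51 and -0.43. Without library 1 of each group 33 of 34 mitosis genes and 24 of 28 genes of the unfolded protein response were negative. An unadjusted p below 0.05 was reached by 15 and 12 of them, in a fit where 1430 of 13303 genes did. In the fit of all libraries 742 of 12981 genes did. The fit without library 1 was chosen after the data were seen. It drops the libraries through which the unfolded protein response means overlapped, so its larger counts are partly built in. Of 11 mitochondrially encoded genes, 10 were positive (median 0.36, and 0.95 without library 1 of each group), with 0 at an unadjusted p below 0.05; mt-Nd5, a subunit of respiratory complex I, had 0.60 ± 0.30 (adjusted p = 0.932).

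**Figure D5:**
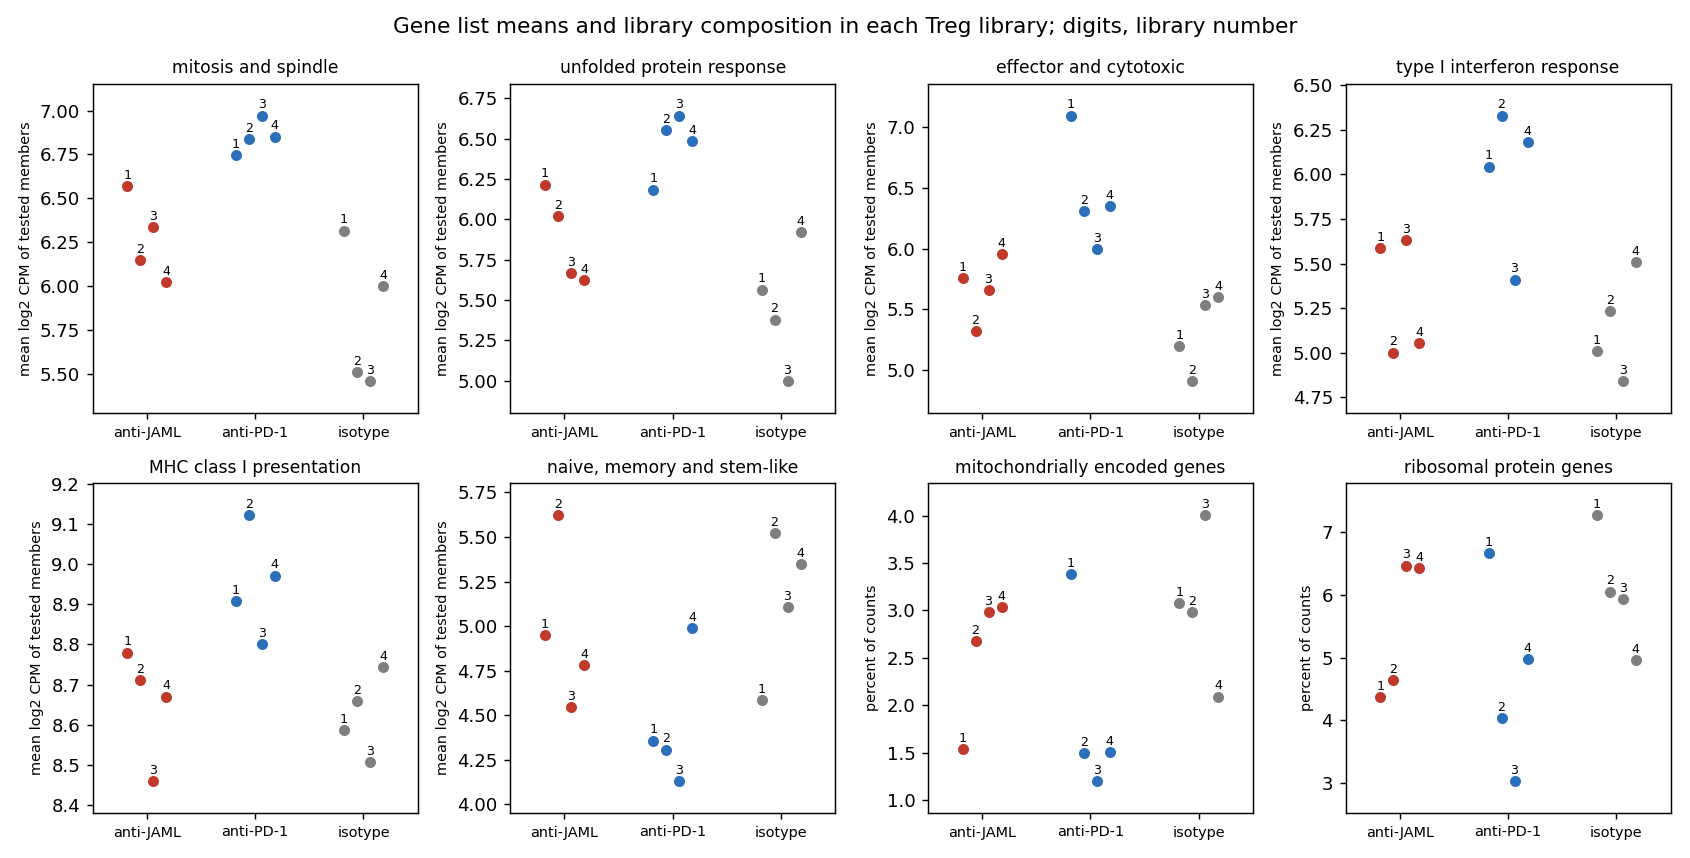
The first 6 panels plot the mean log2 CPM of the tested members of a gene list in each Treg library, and the last 2 the percent of counts in mitochondrially encoded and in ribosomal protein genes, with anti-JAML, anti-PD-1 and isotype from left to right and the library number above each point. The mitosis list parts the 2 antibodies in all 8 libraries, while anti-PD-1 library 1 has 3.38% mitochondrial counts against 1.20 to 1.505% in the other 3 of its group.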

How the data were processed

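RNA of sorted tumour T cells was measured in 24 libraries, 6 groups of 4, assigned by sample titles. The deposited values used are raw read counts for each gene, not normalized by the authors. The submitters' processing notes name STAR 2.7.3a, fastp 0.20.1, deepTools 3.3.1, SAMtools and the build mm10, with no role or order. For the counter, its strand setting and the annotation the answer is "not given in the sources used here"; overlapping, antisense and near-identical genes are therefore uncertain. The authors' table of TPM was not used.

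Counts were fitted in R 4.3.3 by edgeR 4.0.16 and its quasi-likelihood test (robust, TMM, filterByExpr with minimum count 10 and minimum total 15) over the 12 Treg libraries. Adjusted p-values are two-sided Benjamini-Hochberg values with a threshold of 0.05, in edgeR and limma-voom over all genes tested. DESeq2 adjusted over fewer genes, in the direct comparison the 3921 to which it gave an adjusted p. CD8 values and the difference between populations came from a fit of all 24 libraries. Each SE of a log2 fold change was derived from the quasi-likelihood test, as its absolute value over the square root of the F statistic. CPM use TMM-scaled library sizes. Reads are amplified and carry no molecular identifiers, so floors (3 counts over a group) cover counting error only. Positions come from GENCODE M21 and promoters from RefSeq. The procedure was tested on simulated data. Figures were drawn with matplotlib 3.10.9.

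Members, gene lists and tests were chosen with earlier results of these data known. Named genes were Jaml, Pdcd1, Foxp3, Cd4 and Il2ra, the 12 with the smallest p in each direction without predicted, clone-named, pseudogene or receptor segment symbols, 5 in each direction that DESeq2 alone called, the leading members of each list, and 6 for the population difference. Many were left out for length, 1 marker is not reported here, and Lyz2 and other cell markers with values were chosen after these were seen.

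Alternatives were DESeq2 1.42.0, limma-voom 3.58.1, RLE and upper-quartile scaling, no filter and a minimum count of 50, only the 8 libraries compared, all 24 libraries, the replicate block, genes detected or macrophage score as a covariate, and fits without anti-PD-1 libraries 1 and 4 or without each library. The mitochondrial covariate, the fit without library 1 of both antibodies and the CD8 alternatives, the fit of the 12 CD8 libraries alone included, were chosen after seeing the data.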

Additional observations from a re-analysis of the deposited data

Results flagged for a closer look

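Of 252 groups of 4 libraries examined, 22 had a library whose gap to the nearest other took up more of the group's range than Dixon's critical value allows, where chance flags about 1 in 20. Among genes higher after anti-JAML, Ypel3 was 198 CPM in anti-PD-1 library 4 (the other 3 at 112 to 123), Ogt 158 CPM in anti-PD-1 library 1 (141 to 143) and Gpr174 86.6 CPM in anti-PD-1 library 3 (70.9 to 72.2). Il7r was 45.3 CPM in anti-PD-1 library 2 (77.9 to 82.6) and 265 CPM in isotype library 2 (141 to 144). Tigit was 1158 CPM in anti-PD-1 library 4 (1367 to 1398).

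Among genes lower after anti-JAML, Kpna2 was 388 CPM in anti-PD-1 library 2 (526 to 555), Rpa2 165 CPM in anti-PD-1 library 4 (201 to 206) and Ciart 33.8 CPM in isotype library 1 (29.9 to 30.5). Irf7 was 130.5 CPM in isotype library 1 (201 to 210.1). Ccnb1 was 314 CPM in anti-JAML library 1 (179 to 190.1), and Pdia3 was 684 CPM in anti-JAML library 3 (780.0 to 794). Jaml was 0.212 CPM in anti-JAML library 3 and 0.825 CPM in isotype library 4, with the others at 0. Foxp3 was 106 CPM in isotype library 4 (59.0 to 65.7).

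Library 1 of both antibodies stood apart in mitochondrial transcripts. In anti-JAML library 1 mt-Nd5 was 999 CPM (1613 to 1726), and anti-PD-1 library 1 had 3.38% mitochondrial counts (1.20 to 1.505). Erythroid markers summed to 1417 CPM in anti-JAML library 4 (0.632 to 9.15), to 716 CPM in anti-PD-1 library 1 (0.729 to 2.60) and to 1.10 CPM in isotype library 4 (others at 0). Melanoma markers summed to 88.6 CPM in anti-PD-1 library 1 (21.3 to 29.2). CD8 markers summed to 40.8 CPM in anti-JAML library 3 (25.5 to 27.8).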

How the results depend on the processing

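The count of 0 genes for anti-JAML against anti-PD-1 in Treg cells became 70 in DESeq2, 3 in the fit of all 24 libraries (Bst2, Spp1 and Ypel3) and 11 with the macrophage score as a covariate (1 higher, 10 lower). Without single libraries it lay between 0 and 1. In the other settings it was 0. With the replicate block it was 0, with a smallest adjusted p of 0.945, and 575 genes had an unadjusted p below 0.05. Libraries of the same number were not alike across all genes, as 0 of 12 same-number pairs correlated over 0.1 (-0.203 to 0.0785). A shared mouse or day could be hidden by other differences between libraries, so this does not settle whether the numbers mark pairs. For the difference between populations DESeq2 gave 138, and the other settings gave 0. The 8 leading genes called in CD8 cells, where 58 genes were called in all, became 12 in DESeq2 (391 in all), 5 with the replicate block (43), 0 with only the 12 CD8 libraries (1), 0 without CD8 anti-JAML libraries 2 and 4 (0), and 0 to 9 without single libraries (3 to 86). The cause was not tested. Of 1792 values over 69 single genes, 6 were reversed, all for Foxp3 and Cd4. With the macrophage score as a covariate Foxp3 had -0.12 and Cd4 -0.62. Cd4 had -0.22 without anti-PD-1 libraries 1 and 4 and -0.10 without library 1 of each group. Without single libraries Cd4 lay between -0.026 and 0.39. Over alternatives the log2 fold change of Spp1 ranged from -7.36 to -5.71, the log2 fold change of Bst2 from -2.00 to -1.43 and the log2 fold change of Ypel3 from 1.41 to 2.11. Of 780 list medians, 27 moved by more than 1 SD between libraries. Of lists with a value in the report these were effector (-0.29), mitochondrially encoded (1.03) and respiratory chain genes (0.47) with the macrophage score, effector (-0.29) and heat shock (-0.08) without anti-PD-1 libraries 1 and 4, and effector (-0.22), mitochondrially encoded (0.95) and respiratory chain genes (0.35) without library 1 of each group. The 4 libraries a group and counts near 0 for genes such as Jaml limit the precision.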
